A study of Mus musculus with 30 samples.

Results

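Cyba, Ncf1, Ncf4, Rac2 and Hvcn1 belong to the NADPH oxidase of phagocytes and its support, and were followed here in mouse blood cells, in stem cells and in cultured cells made from endothelium. They were picked by symbol from a table of 23060 gene symbols, and all 5 were found. Each was detected in all 29 grouped libraries, and each stood at 1 FPKM or more in all 29. FPKM gives sequenced fragments scaled to transcript length and to the mapped fragments of the library, so it is a level per length. On mm10, Cyba lies at chr8:122424776-122432930, Ncf1 at chr5:134220053-134229625, Ncf4 at chr15:78244801-78262580, Rac2 at chr15:78559167-78572783 and Hvcn1 at chr5:122206804-122242297. All are annotated as protein coding in GENCODE, with Cyba, Ncf1 and Rac2 on the minus strand and Ncf4 and Hvcn1 on the plus strand.

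The phagocyte oxidase moves electrons from NADPH across a membrane onto oxygen and so makes superoxide, which neutrophils and macrophages use against microbes. Cyba encodes p22phox, the smaller subunit of the flavocytochrome that sits in the membrane. Ncf1 encodes p47phox, the cytosolic organiser that binds p22phox once it is phosphorylated, and Ncf4 encodes p40phox, a cytosolic subunit that binds a phosphoinositide of phagosome membranes. Rac2 encodes the GTPase of blood cells that joins the assembled complex, and Hvcn1 encodes the voltage-gated proton channel that carries off the charge the oxidase builds up. Loss of p22phox, p47phox or p40phox causes forms of chronic granulomatous disease in humans. Rac2 also works in cell movement, and Hvcn1 and the oxidase have known roles in B cells.

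The series asked how far blood formed from converted adult endothelium resembles native blood. FGRS is named for 4 conversion factors, Fosb, Gfi1, Runx1 and Spi1. The 3 FGRS libraries came from adherent KLS cells (Kit+, lineage-negative, Sca1+) at day 28, grown together with human umbilical vein endothelial cells. The 13 rEC libraries are annotated as derived and the 13 control libraries as wild type, all from freshly isolated cells. LKS-SLAM cells, a marrow fraction rich in stem cells, have 3 rEC and 3 control libraries. The rest came from blood, with 2 rEC and 2 control libraries of Gr1+ Cd11b+ myeloid cells, 3 and 3 of B220+ B lymphocytes, 2 and 2 of CD4 T lymphocytes, and 3 and 3 of CD8 T lymphocytes. In the rEC groups, LKS-SLAM and B cell replicate 2 are titled as clone 47G1, primary, while LKS-SLAM and B cell replicate 3, CD4 replicate 2 and CD8 replicates 2 and 3 are titled as secondary. The labels used here give no strain, sex or age, and do not say that replicates are separate animals, so p-values measure the spread between these libraries, which may be technical.

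Some libraries stood apart in ways that touch the results. Relative depth ran from 0.589 to 1.14 of 1 control B cell library, and 10165 to 12550 genes reached 1 FPKM in a library. LKS-SLAM rEC replicate 2 had the lowest summed level of 6 stem cell fraction genes of the LKS-SLAM libraries (95.6 FPKM, against 356 to 640.0 in the other 5) and the highest of 3 erythroid genes (2222 FPKM). B cell rEC replicate 1 carried 6 T cell genes at a sum of 1331 FPKM, where the other B cell libraries had 1.38 to 2.99, and 5 B cell genes at 1716 FPKM against 5756 to 6846. In bulk RNA, fewer cells of a type and less RNA per cell cannot be told apart.

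The sequence before the start of Cyba and of Ncf1 is shown because RefSeq promoter sequence on GRCm38.p6 was matched for only these 2 of the 5 genes. Both genes were higher in FGRS and in myeloid cells than in LKS-SLAM cells, as was Ncf4, for which no sequence was matched. Both windows hold the 250 bases before the annotated start, on the minus strand. Capitals mark every match, on either strand, to GGAA, the core that ETS factors such as Spi1 bind, or to GGGCGG, the GC box.
Cyba, chr8:122432941-122433190: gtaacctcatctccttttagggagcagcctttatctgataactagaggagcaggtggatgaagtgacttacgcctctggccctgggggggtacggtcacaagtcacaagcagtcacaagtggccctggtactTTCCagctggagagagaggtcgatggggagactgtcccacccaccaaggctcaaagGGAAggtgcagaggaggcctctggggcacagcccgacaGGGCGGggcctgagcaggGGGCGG
Ncf1, chr5:134229626-134229875: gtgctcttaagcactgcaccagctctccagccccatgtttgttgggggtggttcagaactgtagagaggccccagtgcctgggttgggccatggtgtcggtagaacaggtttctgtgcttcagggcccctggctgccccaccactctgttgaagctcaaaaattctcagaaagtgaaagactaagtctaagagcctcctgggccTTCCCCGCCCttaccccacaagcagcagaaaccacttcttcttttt
Cyba held 2 matches to GGAA and 2 to GGGCGG, and Ncf1 held 1 of each, side by side with no shared base. Of 32851 promoters of the same length, 93.4% held GGAA and 32.7% held GGGCGG, so such matches are common. The longer Spi1 motif GAGGAA (in 23.2% of promoters), TTGCNNAA of C/EBP factors (9.56%), TGTGGT of Runx1 (14.1%) and TGANTCA of the Fos family (6.75%) had no match on either strand of either window. A missing match says only that these letters are not in this window.

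Cyba was highest in blood myeloid cells and lowest in LKS-SLAM cells. It stood at 664 and 716 FPKM in rEC myeloid cells, against 736 and 777 FPKM in control myeloid cells, with no overlap. FGRS cells had 240.4, 625 and 606 FPKM, so that 2 of the 3 libraries were close to the myeloid range and replicate 1 was far below them. B cells came next, at 328, 384 and 406 FPKM in rEC and 539.9, 339.8 and 338 FPKM in control cells, and the ranges overlapped. CD8 cells had 197, 184 and 198 FPKM in rEC and 264, 258 and 218 FPKM in control cells. CD4 cells had 161 and 172 FPKM in rEC, against 271 and 208 FPKM in control cells. In both T cell types every rEC library was below every control library. LKS-SLAM cells had 120.2, 76.7 and 58.2 FPKM in rEC and 110.2, 113 and 90.3 FPKM in control cells, with rEC replicate 1 above all 3 controls and the other rEC libraries below them. The order of group means ran from control myeloid (757 FPKM) to rEC LKS-SLAM (85.05 FPKM), a ratio of 8.90. Neighbours whose libraries overlapped were FGRS and control B, control B and rEC B, control CD8 and control CD4, and control and rEC LKS-SLAM.

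Ncf1 spread over a far wider range, with a ratio of 139 between the highest and the lowest group mean. Myeloid cells had 429 and 267 FPKM in rEC and 262 and 299 FPKM in control cells, and the ranges overlapped. B cells followed with 64.1, 182 and 197 FPKM in rEC and 161, 176 and 170.4 FPKM in control cells. The low rEC value was that of replicate 1, the library with T cell genes. FGRS cells had 121, 118 and 119.9 FPKM, the tightest group of all for this gene apart from control CD4 cells (coefficients of variation 1.11% and 0.329%). LKS-SLAM cells had 19.0, 4.80 and 2.83 FPKM in rEC, against 41.5, 38.6 and 36.1 FPKM in control cells, with no overlap. The T cell types stood apart from each other. CD8 cells had 30.4, 22.5 and 47.5 FPKM in rEC and 32.4, 41.3 and 38.1 FPKM in control cells, while CD4 cells had 5.10 and 4.70 FPKM in rEC and 2.51 and 2.50 FPKM in control cells. In the order of group means the overlapping neighbours were rEC and control myeloid, control B and rEC B, rEC B and FGRS, control LKS-SLAM with control CD8, control CD8 with rEC CD8, and rEC LKS-SLAM with rEC CD4.

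Ncf4 was highest in myeloid cells and B cells and lowest in rEC LKS-SLAM cells. Myeloid cells had 257 and 319 FPKM in rEC, against 217 and 229 FPKM in control cells, with both rEC libraries above both controls. B cells had 90.6, 176 and 258 FPKM in rEC and 216, 169 and 176 FPKM in control cells. The rEC B cell range enclosed the whole control range. FGRS cells had 70.0, 126 and 121 FPKM, and replicate 1 was again the lowest. T cells lay below them, at 51.8, 64.7 and 55.1 FPKM in rEC CD8, 77.1, 71.1 and 57.3 FPKM in control CD8, 42.8 and 50.5 FPKM in rEC CD4 and 58.9 and 57.0 FPKM in control CD4 cells. LKS-SLAM cells had 9.13, 4.17 and 1.33 FPKM in rEC and 23.6, 20.1 and 26.6 FPKM in control cells, so every rEC library was below every control. Overlapping neighbours in the order of means were control B and rEC B, rEC B and FGRS, FGRS and control CD8, control CD8 and control CD4, and control CD4 and rEC CD8. The ratio of Ncf1 to Ncf4 in FPKM averaged 0.106 in rEC CD4 and 0.0432 in control CD4 cells, against 0.599 in rEC CD8 and 0.555 in control CD8 cells.

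Rac2 varied least, with a ratio of 5.48 between the highest and lowest group mean. All blood groups lay well above the marrow and cultured cells. The group means ran from 431 FPKM in rEC myeloid cells to 257 FPKM in control B cells across the 8 blood groups, and only control and rEC CD8 cells, and control B and FGRS cells, were neighbours in the order without overlap. CD8 cells had 304, 351 and 347 FPKM in rEC, against 384, 394 and 380.3 FPKM in control cells. CD4 cells had 258 and 326 FPKM in rEC and 338 and 312 FPKM in control cells. In CD8 cells alone of the T cell types was every rEC library below every control library. Myeloid cells had 355 and 508 FPKM in rEC and 322 and 336 FPKM in control cells, and B cells had 318, 284 and 281 FPKM in rEC and 263, 252 and 257 FPKM in control cells. In these cell types every rEC library was above every control library. FGRS cells had 123, 130.5 and 116 FPKM. LKS-SLAM cells had 117, 39.7 and 79.6 FPKM in rEC and 104, 102 and 140.3 FPKM in control cells, and the lowest of all 29 values was that of LKS-SLAM rEC replicate 2.

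Hvcn1 had another order from the oxidase subunits. B cells had 34.1, 117 and 147 FPKM in rEC and 98.4, 141 and 113 FPKM in control cells, with the low value again in rEC replicate 1. Every B cell library lay above every library of another cell type. CD8 cells had 11.3, 17.3 and 17.5 FPKM in rEC, against 22.8, 22.3 and 19.3 FPKM in control cells. CD4 cells had 9.89 and 16.1 FPKM in rEC and 15.3 and 16.1 FPKM in control cells. The CD8 groups did not overlap and the CD4 groups did. LKS-SLAM cells had 5.42, 2.52 and 3.16 FPKM in rEC and 7.94, 6.13 and 8.34 FPKM in control cells. FGRS cells had 2.42, 4.97 and 3.64 FPKM. Myeloid cells had the lowest values, at 2.21 and 1.86 FPKM in rEC and 1.77 and 2.31 FPKM in control cells. Overlapping neighbours in the order of means were both B cell groups, control CD4 and rEC CD8, rEC CD8 and rEC CD4, rEC LKS-SLAM and FGRS, and both myeloid groups.

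**Figure D1:**
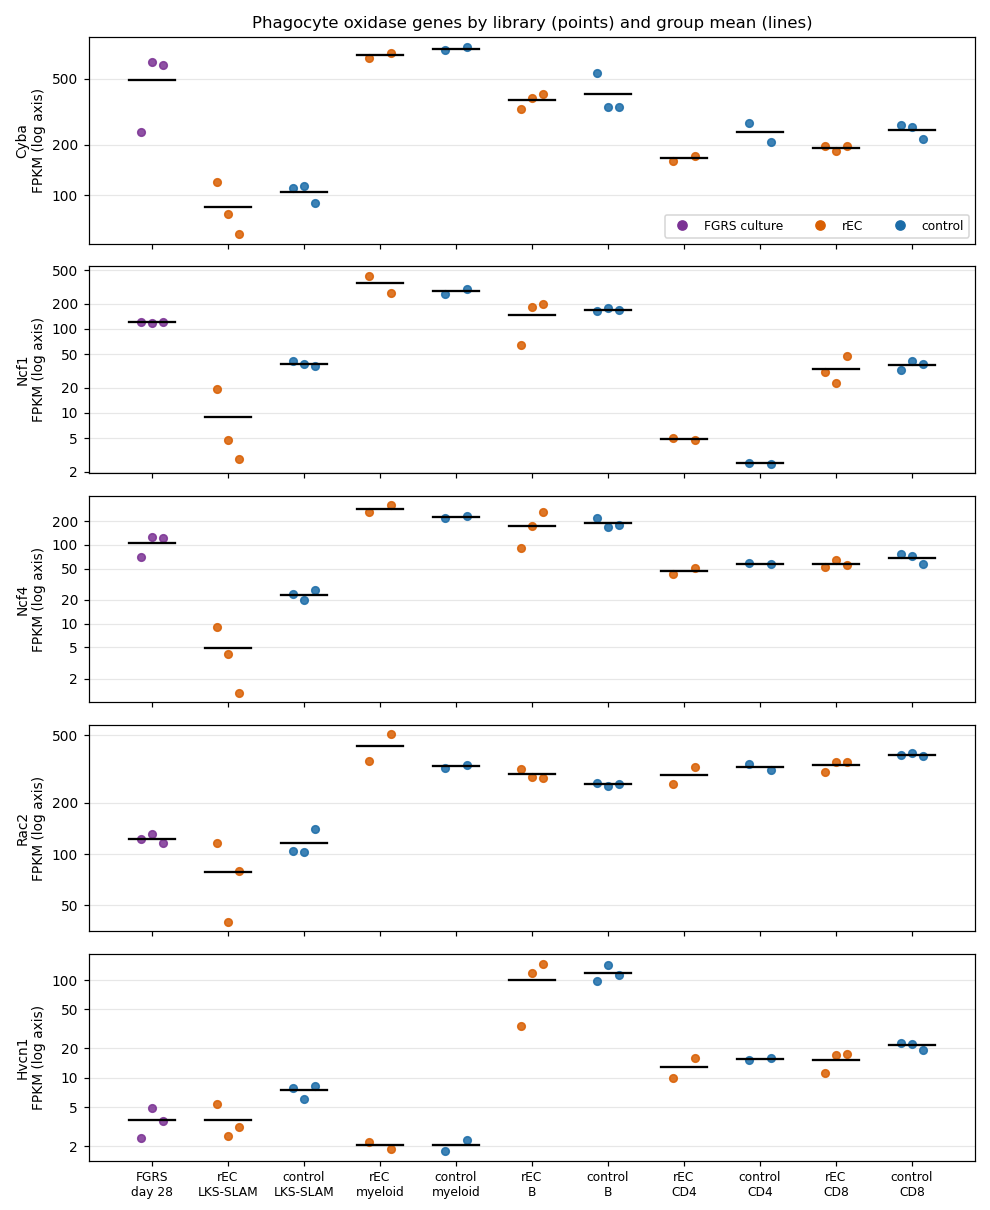
FPKM of each gene on a log axis, with 1 point per library and a line at the group mean, in FGRS (purple), rEC (orange) and control (blue) groups. Cyba, Ncf1 and Ncf4 are highest in myeloid cells (group means up to 757, 348 and 288 FPKM), and Hvcn1 is highest in B cells (99.5 FPKM in rEC and 117 FPKM in control cells).

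The make-up of the summed FPKM of the 5 genes differed between groups. Rac2 made up 52.7% of that sum in rEC CD8 and 50.9% in control CD8 cells, 55.7% in rEC CD4 and 50.8% in control CD4 cells, and 15.7% in FGRS cells. Cyba made up 56.0% in FGRS cells, 39.2% in rEC myeloid and 47.6% in control myeloid cells. Ncf1 and Ncf4 made up 4.25% and 2.52% in rEC LKS-SLAM cells, against 13.4% and 8.07% in control LKS-SLAM cells. Hvcn1 reached 8.58% in rEC B and 10.5% in control B cells and was 2.82% or less in every other group mean. The sum itself was 843 FPKM in FGRS, 181 FPKM in rEC LKS-SLAM and 289.8 FPKM in control LKS-SLAM cells. It was 1759 FPKM in rEC myeloid and 1591 FPKM in control myeloid cells.

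**Figure D2:**
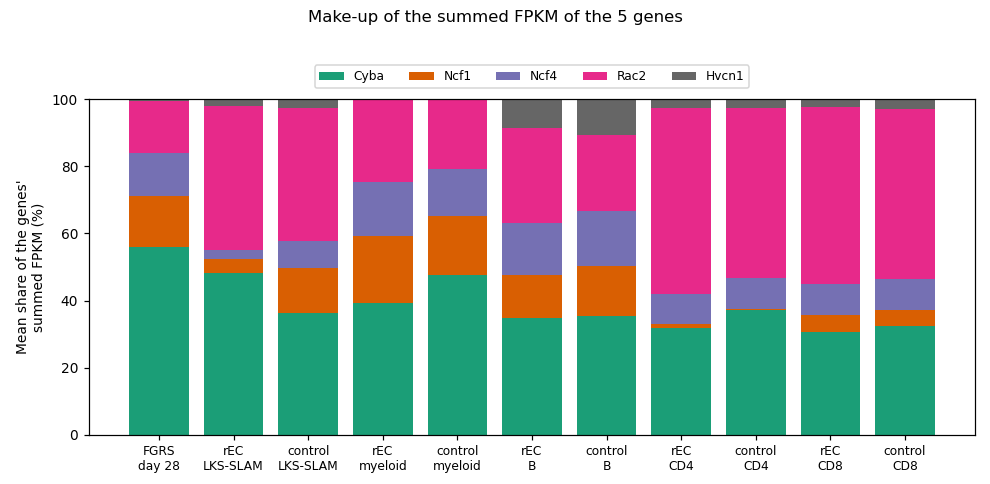
Mean share of each gene in the summed FPKM of the 5 genes, per group, in percent. The Rac2 share is above 50% in all 4 T cell groups, and the Ncf1 share is 4.25% in rEC LKS-SLAM against 13.4% in control LKS-SLAM cells.

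Across the 29 libraries, log2(FPKM + 1) of Cyba and Ncf4 had a Pearson r of 0.919, of Ncf1 and Ncf4 0.755 and of Cyba and Ncf1 0.753. Rac2 had 0.699 with Ncf4, 0.558 with Cyba and 0.270 with Ncf1. Hvcn1 had 0.0850 with Cyba, 0.112 with Ncf1, 0.323 with Ncf4 and 0.353 with Rac2. Spi1, the myeloid and B cell factor among the 4 used for conversion, had 0.745 with Ncf1, 0.499 with Cyba, 0.344 with Ncf4, -0.197 with Rac2 and -0.258 with Hvcn1. These libraries fall into 11 groups and share cell type and sort within a group, so the values are a description.

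For each gene, the 5 most similar genes by Pearson r of log2(FPKM + 1) over the same 29 libraries were taken. For Cyba they were Ctss (0.945), the cathepsin S gene, Fam49b (0.941), Ctsa (0.940), Rhoa (0.932) and Tpm4 (0.924). For Ncf1 they included Fcgr2b (0.941), the inhibitory antibody receptor of B cells and myeloid cells, Cyp4f18 (0.904), Pld4 (0.901) and Pik3ap1 (0.900). For Ncf4 they were Ctss (0.943), AB124611 (0.934), Tpm4 (0.933), Actr3 (0.922) and Cyba itself (0.919). Rac2 was most like Cnn2 (0.980), Ptprc (0.974), which encodes the blood cell surface protein CD45, Wipf1 (0.967), Ankrd44 (0.955) and Tapbp (0.954). Hvcn1 was most like H2-Ob (0.968), which encodes a chain of an accessory protein of antigen presentation in B cells, Atp5sl (0.957), Ralgps2 (0.954), Sh3pxd2a (0.954) and Zscan20 (0.952).

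Among control cells, most of the 5 genes were higher in blood lineages than in the stem cell fraction, with Hvcn1 in myeloid cells and Ncf1 in T cells as the exceptions. Differences were tested with limma on log2(FPKM + 1) over 14083 genes in a single model with 11 group means, and passed at a Benjamini-Hochberg adjusted p under 0.05. In control myeloid cells against control LKS-SLAM cells, 4 of the 5 genes rose, where 17.4% of all genes tested were higher, and Hvcn1 fell, where 49.1% were lower. Ncf4 rose by 3.20 ± 0.41 on the log2 scale (SE, adjusted p = 7.97e-07), Cyba by 2.85 ± 0.31 (8.75e-08), Ncf1 by 2.82 ± 0.47 (2.20e-05) and Rac2 by 1.52 ± 0.26 (3.57e-05). Hvcn1 fell by 1.47 ± 0.40 (adjusted p = 0.00295), with 2.04 ± 0.382 FPKM (SD, n = 2) in control myeloid and 7.47 ± 1.18 FPKM (n = 3) in control LKS-SLAM cells. After quantile normalisation the fall of Hvcn1 no longer passed (log2 difference -0.47, adjusted p = 0.373), and the median of all genes in this comparison shifted to -0.065, against -0.61 as deposited. Over all genes 2453 were higher and 6911 lower here as deposited, and 4038 and 4454 after quantile normalisation.

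In control B cells against control LKS-SLAM cells all 5 genes rose, where 18.9% of genes were higher. Hvcn1 rose most, by 3.80 ± 0.36 (adjusted p = 1.59e-08), followed by Ncf4 (2.94 ± 0.37), Ncf1 (2.101 ± 0.42), Cyba (1.92 ± 0.28) and Rac2 (1.16 ± 0.24). Over all genes 2657 were higher and 5175 lower as deposited, and 4476 and 3731 after quantile normalisation. In control T cells, taken as the mean of the CD4 and CD8 groups, 4 genes rose against control LKS-SLAM cells, where 20.4% were higher: Rac2 by 1.62 ± 0.21, Ncf4 by 1.39 ± 0.33, Cyba by 1.21 ± 0.25 and Hvcn1 by 1.20 ± 0.33. Ncf1 fell in T cells by 1.78 ± 0.38 (adjusted p = 0.000426), where 36.3% of genes were lower. Over all genes 2877 were higher and 5111 lower in T cells as deposited, and 4605 and 3920 after quantile normalisation. This mean joins unlike values, since control CD8 cells were at 37.3 ± 4.51 FPKM (n = 3) and control CD4 cells at 2.50 ± 0.00823 FPKM (n = 2), against 38.7 ± 2.72 FPKM (n = 3) in control LKS-SLAM cells.

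Control B cells and control myeloid cells differed in 2 of the 5 genes. Hvcn1 was higher in B cells by 5.27 ± 0.40 on the log2 scale (adjusted p = 4.88e-10), where 35.8% of genes were higher, at 117 ± 21.9 FPKM (n = 3) in B cells and 2.04 ± 0.382 FPKM (n = 2) in myeloid cells. Cyba was lower in B cells by a difference of -0.93 ± 0.31 (adjusted p = 0.0154), where 17.2% were lower. That Cyba call ended without control myeloid replicate 1 or 2 or control B replicate 2 or 3. Ncf1 (-0.72 ± 0.47), Ncf4 (-0.26 ± 0.41) and Rac2 (-0.35 ± 0.26) did not pass. In a model of these groups alone, 4 of the 5 passed, with Ncf1 and Rac2 added. The share of all genes that passed in that smaller model was not counted.

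Against control B cells, control T cells were lower in 4 of the 5 genes, where 12.0% of all genes were lower. The log2 difference was -3.88 ± 0.38 for Ncf1 (adjusted p = 1.24e-07), -2.60 ± 0.33 for Hvcn1 (2.73e-06), -1.55 ± 0.33 for Ncf4 (0.00102) and -0.71 ± 0.25 for Cyba (0.0396). The Cyba call ended without control B replicate 1, control CD4 replicate 2 or control CD8 replicate 2 or 3. Rac2 was at a difference of 0.46 ± 0.21 and did not pass (adjusted p = 0.124), while it passed in a model of these groups alone (0.000992) and with array quality weights (2.15e-05).

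Between the T cell types, Ncf1 was the 1 gene of the 5 that passed in control CD8 against control CD4 cells, where 1.92% of genes were higher. It was higher in CD8 cells by 3.44 ± 0.47 on the log2 scale (adjusted p = 8.78e-05) and passed without any of the 5 libraries in turn. The control CD8 libraries also held more of other cell types' genes: 5 B cell genes summed to 197 to 469 FPKM, against 33.7 to 36.3 FPKM in control CD4 cells. The 6 neutrophil and monocyte genes summed to 522 to 750 FPKM in control CD8 and 29.1 to 37.4 FPKM in control CD4 cells. All 6 had a group mean of 1 FPKM or more in control CD8 cells, against 2 of them in control CD4 cells. In rEC CD8 cells, where the sum was 306 to 658 FPKM, 1 gene reached that mean, so it carried nearly the whole sum. The 6 macrophage genes summed to 18.9 to 61.2 FPKM in control CD8 and 4.98 to 8.07 FPKM in control CD4 cells. Spi1 stood at 13.7, 30.8 and 7.24 FPKM in control CD8 and 0.502 and 1.01 FPKM in control CD4 cells. In rEC CD8 replicate 2 the B cell genes summed to 6.74 FPKM, below every CD4 library (22.2 to 56.0 FPKM), and Spi1 was at 0.161 FPKM. Its macrophage genes summed to 7.20 FPKM, against 4.98 to 8.46 FPKM in the CD4 libraries. Its neutrophil and monocyte genes summed to 658 FPKM, nearly all from 1 gene, against 14.1 to 37.4 FPKM in the CD4 libraries. Ncf1 stood at 22.5 FPKM in that library, and at 2.50 to 5.10 FPKM in the 4 CD4 libraries. The part of these markers in the Ncf1 result was not tested. Cyba, Ncf4, Rac2 and Hvcn1 differed by 0.05, 0.23, 0.25 and 0.42 between the T cell types and did not pass. In a model of both groups alone Rac2 and Hvcn1 passed as well, and the share of all genes that passed there was not counted. Over all genes 271 were higher and 219 lower in CD8 cells as deposited, and 245 and 342 after scaling all libraries to 1 total without the small RNA model Gm25500.

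The comparison of origins asked whether cells descended from endothelium carry the oxidase genes at native levels. In LKS-SLAM cells the cytosolic subunits Ncf1 and Ncf4 were lower in rEC than in control cells, and 2 of the 5 genes passed, where 1.25% of all genes were lower. Ncf1 fell by 2.38 ± 0.42 in log2 units (adjusted p = 0.00351 in limma), with 8.89 ± 8.85 FPKM in rEC and 38.7 ± 2.72 FPKM in control cells (SD, n = 3 each). Ncf4 fell by 2.29 ± 0.37 (adjusted p = 0.00144), with 4.88 ± 3.95 FPKM in rEC and 23.4 ± 3.27 FPKM in control cells. Cyba (-0.35 ± 0.28), Rac2 (-0.66 ± 0.24) and Hvcn1 (-0.89 ± 0.36) did not pass. For Hvcn1 all 3 rEC libraries were below all 3 controls, at 3.70 ± 1.52 FPKM in rEC and 7.47 ± 1.18 FPKM in control cells. The share of all genes with such a separation was not counted.

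Both calls passed without any of the 6 libraries in turn, with differences of -3.07 to -1.88 for Ncf1 and -2.81 to -1.75 for Ncf4. When only these 6 libraries were fitted neither passed (adjusted p = 1 for Ncf1 and 0.896 for Ncf4), so the calls rest on the spread pooled over all groups. The rEC LKS-SLAM libraries varied more than the controls, with coefficients of variation of 99.5% against 7.02% for Ncf1 and 80.9% against 13.9% for Ncf4. Without rEC replicate 1 Rac2 passed too (-1.01, adjusted p = 0.00867), and with array quality weights Cyba and Rac2 turned positive (0.11 and 0.15). Over all genes 10 were higher and 176 lower in rEC cells as deposited, and 83 and 123 after quantile normalisation.

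Marker genes of other blood cells also differed between these libraries. The 6 neutrophil and monocyte genes summed to 28.02 to 335 FPKM in rEC and 1075 to 1393 FPKM in control LKS-SLAM cells, and the 4 primary granule genes to 186 to 354 FPKM in rEC and 623 to 2146 FPKM in control cells. The 3 eosinophil genes summed to 0.925 to 352 FPKM in rEC and 33.3 to 4166 FPKM in control cells, with no overlap for the first and second lists. In rEC cells Ctsg was listed at 0 in replicate 3, Ear1 in replicates 1 and 3 and Epx in replicate 1, and in control cells Epx in replicate 3. The 6 macrophage genes went another way, with 17.0, 154 and 29.5 FPKM in rEC and 26.7, 23.3 and 20.2 FPKM in control cells. Itgam, which encodes the CD11b chain of the complement receptor, stood at 4.22, 0.381 and 1.01 FPKM in rEC and 12.7, 11.5 and 11.2 FPKM in control cells, and rEC replicate 1 was the highest rEC library for Itgam, Ncf1 and Ncf4 alike. The part of these markers in the Ncf1 and Ncf4 results was not tested.

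**Figure D3:**
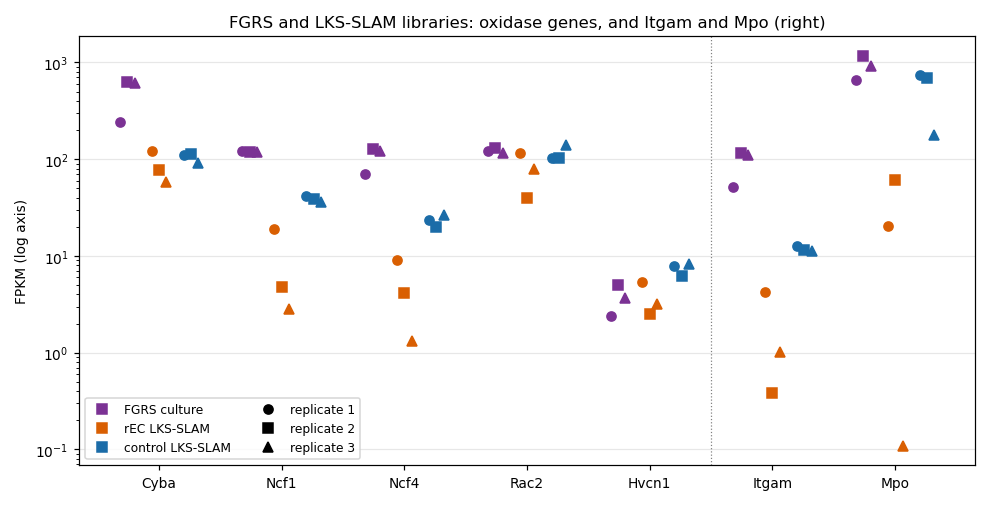
FPKM on a log axis in FGRS, rEC LKS-SLAM and control LKS-SLAM libraries, with 1 symbol per replicate, for the 5 genes and, right of the dotted line, for Itgam and Mpo. All rEC LKS-SLAM libraries lie below all controls for Ncf1 (2.83 to 19.0 against 36.1 to 41.5 FPKM) and Ncf4 (1.33 to 9.13 against 20.1 to 26.6 FPKM), while the ranges of Cyba and Rac2 overlap.

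Around the oxidase, few genes passed between the LKS-SLAM groups. Of 13 other oxidase genes 7 were tested, of which 1 was lower in rEC cells, where 1.25% of all genes were lower, with a list median of -0.078. Of 15 genes that handle superoxide and peroxide 1 was lower in rEC cells, the granule peroxidase Mpo, which turns hydrogen peroxide into hypochlorous acid, with 20.5, 60.2 and 0.109 FPKM in rEC and 733, 687 and 176 FPKM in control cells. Mpo fell by 5.30 ± 0.82 (adjusted p = 0.00119). The primary granule list, which holds Mpo, summed to 317, 186 and 354 FPKM in rEC replicates 1, 2 and 3. These sums ranked the rEC libraries in the opposite order to Mpo, so other genes of the list carried them. Of 10 receptors that trigger the oxidase 2 were lower, Itgam (-2.39 ± 0.44, adjusted p = 0.00504) and the formyl peptide receptor gene Fpr2 (-2.04 ± 0.20, 6.28e-06). None of 19 genes of oxidase activation and none of 9 genes of NADPH supply passed in limma, while 5 and 0 of them had an unadjusted p under 0.05, as did 9.41% of all genes. Without rEC replicate 2 the counts were 1 for activation, 2 for NADPH supply and 2 for superoxide and peroxide. Activation also gave 1 without rEC replicate 1 or control replicate 3, and superoxide and peroxide 2 without rEC replicate 3. The median difference was -0.016 for superoxide and peroxide, -0.98 for receptors, -0.38 for activation and -0.17 for NADPH supply, against -0.054 over all genes.

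In the 4 blood cell types none of the 5 genes passed between origins. In myeloid cells 0.227% of all genes tested passed in either direction, in B cells 0%, in CD4 cells 0.0213% and in CD8 cells 1.13%. At an unadjusted p under 0.05 in limma, 0 of the 5 genes passed in each of these, and 526, 398, 417 and 1050 of the 14083 genes. The myeloid differences were -0.13 ± 0.34 for Cyba, 0.28 ± 0.52 for Ncf1, 0.36 ± 0.45 for Ncf4, 0.37 ± 0.29 for Rac2 and 0.0010 ± 0.44 for Hvcn1. The 6 neutrophil and monocyte genes summed to 40415 and 80189 FPKM in rEC myeloid and 30641 and 33936 FPKM in control myeloid cells, with both rEC libraries higher, as for Ncf4 and Rac2. The 6 macrophage genes went the other way, with sums of 645 and 613 FPKM in rEC myeloid and 752 and 728 FPKM in control myeloid cells. Both rEC libraries were lower there, as for Cyba. The part of either list in these values was not tested.

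In B cells the differences were -0.09 ± 0.28 for Cyba, -0.35 ± 0.42 for Ncf1, -0.21 ± 0.37 for Ncf4, 0.19 ± 0.24 for Rac2 and -0.46 ± 0.36 for Hvcn1. Without rEC replicate 1, which carried T cell genes, those of Ncf1, Ncf4 and Hvcn1 were 0.16, 0.19 and 0.18. In that library Cyba, Ncf1, Ncf4 and Hvcn1 were below all other B cell libraries, and Rac2 was above them all. The part of the T cell genes in these values was not tested beyond leaving the library out.

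In CD4 cells Ncf1 was the gene with the largest difference, 0.75 ± 0.52, with both rEC libraries (4.70 and 5.10 FPKM) above both controls (2.50 and 2.51 FPKM), and it did not pass (adjusted p = 1). The 5 B cell genes summed to 22.2 and 56.0 FPKM in rEC CD4 and 33.7 and 36.3 FPKM in control CD4 cells, so these ranges overlapped. Spi1 stood at 1.92 and 1.54 FPKM in rEC CD4 and 0.502 and 1.01 FPKM in control CD4 cells, with both rEC libraries above both controls as for Ncf1. The 6 neutrophil and monocyte genes went the other way, with sums of 19.6 and 14.1 FPKM in rEC CD4 and 37.4 and 29.1 FPKM in control CD4 cells. The macrophage genes overlapped, at 8.46 and 6.93 FPKM in rEC CD4 and 8.07 and 4.98 FPKM in control CD4 cells. The part of Spi1 and of these lists in the Ncf1 values was not tested. Cyba differed by -0.51 ± 0.34, Ncf4 by -0.31 ± 0.45, Hvcn1 by -0.29 ± 0.44 and Rac2 by -0.16 ± 0.29. In CD8 cells all 5 differences were negative, at -0.48 ± 0.36 for Hvcn1, -0.35 ± 0.28 for Cyba, -0.25 ± 0.37 for Ncf4, -0.21 ± 0.24 for Rac2 and -0.21 ± 0.42 for Ncf1. Spi1 did pass there, and was lower in rEC CD8 cells by a difference of -3.48 ± 0.48 (adjusted p = 0.000547), with 0.389, 0.161 and 0.736 FPKM in rEC and 13.7, 30.8 and 7.24 FPKM in control cells. Besides Spi1, the B cell genes summed to 6.74 to 61.8 FPKM in rEC CD8 and 197 to 469 FPKM in control CD8 cells. The 6 macrophage genes summed to 6.45 to 7.20 FPKM in rEC and 18.9 to 61.2 FPKM in control CD8 cells. Other lists overlapped, with 306 to 658 and 522 to 750 FPKM for neutrophil and monocyte genes and 46.8 to 102 and 65.5 to 108 FPKM for NK cell genes. Of 7 other oxidase genes tested, 2 were lower in rEC CD8 cells. Of the 10 triggering receptors 3 were lower in rEC CD8 cells, Fcer1g (-3.92), Itgam (-2.70) and Fpr2, which was listed at 0 in all 3 rEC libraries, and 5 passed without control CD8 replicate 3. Ncf1 overlapped between these groups. The part of these genes in the CD8 values was not tested. Over all genes 20 were higher and 139 lower in rEC CD8 cells as deposited, and 44 and 133 after quantile normalisation.

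Averaged over the 5 cell types, the difference between origins was -0.29 ± 0.14 for Cyba, -0.38 ± 0.21 for Ncf1, -0.54 ± 0.18 for Ncf4, -0.09 ± 0.12 for Rac2 and -0.42 ± 0.18 for Hvcn1. None of the 5 passed, where 0.895% of all genes did in either direction, and 3 had an unadjusted p under 0.05 in limma, as did 1372 of the 14083 genes (9.74%). By this average 2 of 7 other oxidase genes tested and 2 of 10 triggering receptors were lower in rEC cells. An F test asked whether the 5 differences between origins were unequal. It passed for none of the 5 genes, where 0.277% of all genes passed, and 2 had an unadjusted p under 0.05 in limma, as did 711 of all genes (5.05%). The adjusted p was 0.122 for Ncf1 and 0.128 for Ncf4, so that the LKS-SLAM differences of these genes were not shown to differ from those of the other cell types. Without LKS-SLAM rEC replicate 1 it was 0.00123 for Ncf1 and 0.00831 for Ncf4, and without B cell rEC replicate 1 it was 0.0266 and 0.0341. The average of Ncf4 also passed without LKS-SLAM rEC replicate 1 (-0.64, adjusted p = 0.0351). For the average, 58 genes were higher and 68 lower in rEC cells as deposited, and 87 and 57 after quantile normalisation.

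**Figure D4:**
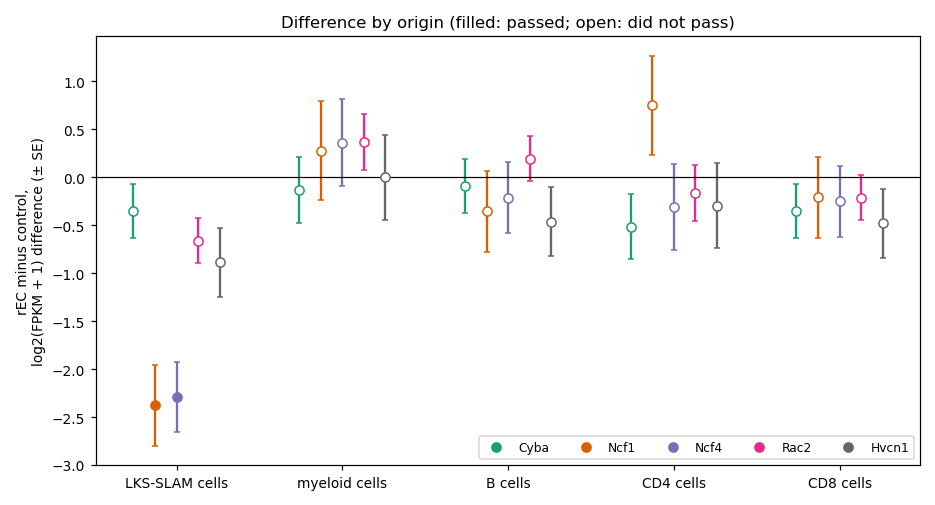
Difference in log2(FPKM + 1) between rEC and control cells of each cell type, with the standard error from limma, filled where the adjusted p was under 0.05. Ncf1 and Ncf4 in LKS-SLAM cells (-2.38 and -2.29) are the only filled points, and all points of the blood cell types lie between -0.51 and 0.75.

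The last comparisons set the cultured FGRS cells against freshly isolated rEC and control cells. The culture differs from these in gate, medium and neighbours, and from control cells in origin as well. These differences cannot be told apart. Against rEC LKS-SLAM cells, 4 of the 5 genes rose, where 17.2% of all genes were higher. Ncf4 rose by 4.38 ± 0.37 (adjusted p = 9.80e-09), Ncf1 by 3.98 ± 0.42 (2.66e-07), Cyba by 2.45 ± 0.28 (6.71e-07) and Rac2 by 0.77 ± 0.24 (0.0120). FGRS cells had 106 ± 31.2 FPKM of Ncf4 and 119.6 ± 1.33 FPKM of Ncf1, against 4.88 ± 3.95 and 8.89 ± 8.85 FPKM in rEC LKS-SLAM cells (SD, n = 3 each). For Rac2 the groups overlapped, since the lowest FGRS library (116 FPKM) was just below the highest rEC library (117 FPKM). Its call ended without rEC LKS-SLAM replicate 2 (0.35, adjusted p = 0.0755), in a fit of these groups alone, with both other scalings and with array quality weights. Hvcn1 was at the same mean level, 3.67 ± 1.27 FPKM in FGRS and 3.70 ± 1.52 FPKM in rEC LKS-SLAM cells, with a difference of 0.0029 ± 0.36 that changed sign between settings.

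Against control LKS-SLAM cells the cultured cells had more of 3 subunits and less Hvcn1. Cyba rose by 2.101 ± 0.28 (adjusted p = 5.51e-06), Ncf4 by 2.09 ± 0.37 (0.000114) and Ncf1 by 1.60 ± 0.42 (0.00375), 3 of the 5 genes where 17.1% of all genes were higher. These passed without any of the 6 libraries in turn. Hvcn1 fell by 0.88 ± 0.36 (adjusted p = 0.0474), 1 of the 5 genes where 31.7% were lower, and this call ended in 5 of the 6 fits that left out a library, all but the one without FGRS replicate 2, and after quantile normalisation. Rac2 was at 123 ± 7.08 FPKM in FGRS and 116 ± 21.5 FPKM in control LKS-SLAM cells. Its difference of 0.10 ± 0.24 did not pass and was -0.31 after quantile normalisation and -0.079 after scaling without Gm25500. Over all genes 2411 were higher and 4459 lower in FGRS cells as deposited, and 2911 and 2906 after quantile normalisation.

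Against control myeloid cells the subunits were lower in culture. The log2 difference was -1.41 ± 0.26 for Rac2 (adjusted p = 8.79e-05), -1.22 ± 0.47 for Ncf1 (0.0315), -1.11 ± 0.41 for Ncf4 (0.0247) and -0.75 ± 0.31 for Cyba (0.0453), so 4 of the 5 genes fell where 20.3% of all genes were lower. Only the fall of Rac2 passed without any of the 5 libraries in turn. The count was 1 of 5 without FGRS replicate 1, control myeloid replicate 1 or control myeloid replicate 2, and 3 of 5 without FGRS replicate 2 or 3. Hvcn1 was at 3.67 ± 1.27 FPKM in FGRS and 2.04 ± 0.382 FPKM (n = 2) in control myeloid cells, a difference of 0.59 ± 0.40 that did not pass, while it passed with array quality weights (adjusted p = 0.00232). Over all genes 5321 were higher and 2860 lower in FGRS cells as deposited, and 4115 and 3937 after quantile normalisation. The FGRS libraries are shared by all 3 of these comparisons.

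**Figure D5:**
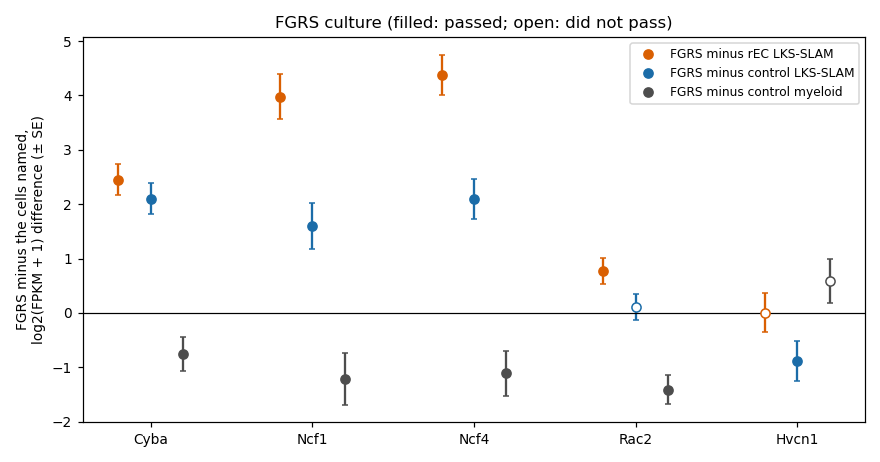
Difference in log2(FPKM + 1) of FGRS cells from rEC LKS-SLAM, control LKS-SLAM and control myeloid cells, with the standard error from limma, filled where the adjusted p was under 0.05. Cyba, Ncf1 and Ncf4 lie above 0 against both LKS-SLAM groups (1.60 to 4.38) and below 0 against control myeloid cells (-1.22 to -0.75).

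The FGRS libraries differed among themselves in the same genes. In replicate 1, Cyba (240.4 FPKM), Ncf4 (70.0 FPKM) and Hvcn1 (2.42 FPKM) were the lowest of the 3, while Ncf1 and Rac2 were not. The 6 macrophage genes summed to 154 FPKM in replicate 1 and to 904 and 585 FPKM in replicates 2 and 3, against 20.2 to 26.7 FPKM in control LKS-SLAM and 728 to 752 FPKM in control myeloid cells. The 6 neutrophil and monocyte genes summed to 363, 3749 and 1565 FPKM in FGRS and 1075 to 1393 FPKM in control LKS-SLAM cells, and the 6 stem cell fraction genes to 113 to 157 FPKM and 356 to 413 FPKM. The 4 primary granule genes summed to 2463 to 4790 FPKM in FGRS, 186 to 354 FPKM in rEC LKS-SLAM, 623 to 2146 FPKM in control LKS-SLAM and 5.30 to 7.01 FPKM in control myeloid cells. No gene of these lists was at 0 in FGRS cells, and the part of these markers in the results was not tested. Spi1 stood at 241 ± 67.4 FPKM in FGRS, 53.2 ± 30.5 FPKM in rEC LKS-SLAM and 76.3 ± 11.3 FPKM in control LKS-SLAM cells (n = 3 each), and at 653 ± 31.5 FPKM in control myeloid cells (n = 2). Spi1 is itself 1 of the 4 conversion factors, and these values do not separate the introduced transcript from the native one.

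Some of the genes that feed and trigger the oxidase also rose in culture against control LKS-SLAM cells, a comparison in which 17.1% of all genes were higher and 31.7% lower. Of 9 NADPH supply genes 6 rose and none fell, among them the pentose phosphate enzymes Pgd (by 2.18, to 265 FPKM in FGRS against 56.7 FPKM) and G6pdx (1.80), the isocitrate dehydrogenase Idh1 (1.83) and the transaldolase Taldo1 (1.34). Of 10 triggering receptors 7 rose and none fell, led by the antibody receptor Fcgr1 (4.16), its signalling chain Fcer1g (2.92), the complement receptor C5ar1 (2.86) and Itgam (2.79). Of 15 superoxide and peroxide genes 7 rose and none fell, among them the peroxiredoxin Prdx1 (2.16), the glutathione reductase Gsr (2.07), the thioredoxin reductase Txnrd1 (1.30) and the glutathione peroxidase Gpx1 (1.26). The medians were 0.96, 2.62 and 0.82, against -0.19 over all genes. Of 19 activation genes, a list that does not tell promoting from restraining genes apart, 6 rose and 1 fell. The kinase gene Prkca fell by 2.03, and those that rose included Arhgdia (1.27) and Arhgdib (1.10) and the small GTPase Rap1a (0.88), with a list median of 0.10. That list's count of genes passed was 4 in both other scalings and 13 with array quality weights. Of 13 other oxidase genes 7 were expressed highly enough to be tested, of which 3 rose and 1 fell. The Noxa1 gene, an activator of another NADPH oxidase, fell by 2.19 to 0.00815 FPKM in FGRS, against 4.19 FPKM, and Rac1, the widely expressed relative of Rac2, rose by 0.63.

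The same lists were also followed between control cell types. In control myeloid cells all 10 triggering receptors rose against control LKS-SLAM cells, led by the fungal receptor Clec7a (6.33), Fpr1 (6.26), C5ar1 (6.22) and Fcgr4 (5.94), and 16 of 19 activation genes rose and 2 fell, among them the kinases Prkcb (3.30) and Prkcd (2.94) and the Rac exchange factor Prex1 (2.25). Of all genes, 17.4% were higher and 49.1% lower in that comparison. In control B cells, where 35.8% of all genes were higher and 17.2% lower than in control myeloid cells, all 10 receptors were lower, with a list median of -7.17 against 0.25 over all genes, and Clec7a, for example, stood at 0.00745 FPKM in B cells and 550.4 FPKM in myeloid cells. Of 9 NADPH supply genes 6 were lower and 2 higher in B cells, and Idh1, Pgd, Taldo1 and G6pdx were lower by differences of -3.22, -2.96, -2.95 and -2.71. Of 15 superoxide and peroxide genes 6 were lower and 2 higher, with 5 passed in all without control myeloid replicate 2 or control B replicate 2. Gsr stood at 0.918 FPKM in B cells and 530.0 FPKM in myeloid cells. Beside these, the differences of Ncf1, Ncf4 and Rac2 between control B and control myeloid cells were -0.72, -0.26 and -0.35, and none of the 3 passed.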

How the data were processed

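RNA was measured in 30 libraries, prepared with non-stranded poly-A selection and read as 51 bp paired ends, per the labels' protocols. Cufflinks 2.2.1, TopHat2 2.1.0, Trimmomatic 0.36, FastQC 0.11.5, bcl2fastq 2.17 and the build mm10 are listed in the submitters' processing notes, with no order or settings. The deposited values are FPKM for 23060 gene symbols. Any scaling between libraries by the authors is not given in the sources used here. FPKM hold no counts, so absolute depth is unknown and no counting interval can be given. Relative depth is the most frequent ratio of FPKM in control B cell replicate 2 to FPKM in the library. It was taken among detected genes under 0.5 FPKM in both.

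Libraries were grouped by title into 11 groups, and 1 library with conflicting labels was left out. Differences were tested on log2(FPKM + 1) with limma 3.58.1 (R 4.3.3). This scale understates changes of low genes. The fit had a mean-variance trend and 18 residual degrees of freedom, and took the 14083 genes that reached 1 FPKM in 2 or more libraries. All tests but the F test had 2 sides, and the procedure was tested on simulated data. The 5 genes, the lists and the markers were chosen with earlier results of these data known. Up to 4 passing genes per list were named, by the size of their difference, and some genes named by that rule are not reported here. The motifs GGAA and GGGCGG were added after the promoters had been seen. Positions are GENCODE M21 coordinates on mm10. Python 3.11.15 with numpy 2.4.6, pandas 2.3.3 and matplotlib 3.10.9 was used for the rest. Alternatives were another pseudocount, other filters and scalings, array weights, a replicate block, smaller models and leaving out libraries.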

Additional observations from a re-analysis of the deposited data

Results flagged for a closer look

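For 3 genes, all rEC libraries lay above all controls in at least 1 cell type and below them in another. How many of all genes show such a pattern was not counted, so these genes are not shown to stand out by it. Ncf1 differed by -2.38 in LKS-SLAM cells and by 0.75 in CD4 cells on the log2 scale. Ncf4 differed by 0.36 in myeloid cells, by -2.29 in LKS-SLAM cells and by -0.31 in CD4 cells. Rac2 differed by 0.37 in myeloid cells and 0.19 in B cells, and by -0.21 in CD8 cells. These pairs of cell types were not tested against each other. The joint F test over the 5 cell types did not pass for any of them, with an adjusted p of 0.122 for Ncf1, 0.128 for Ncf4 and 1 for Rac2 in limma.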

How the results depend on the processing

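Over all settings tried, 1248 recomputed member results kept their direction and their side of the threshold, 42 lost the threshold, 22 gained it and 33 changed sign. A pseudocount of 0.1 and a filter of 5 FPKM changed no call of the 5 genes. With no filter on low values 3 calls ended, Hvcn1 in FGRS against control LKS-SLAM (adjusted p = 0.0654), Cyba in FGRS against control myeloid (0.0643) and Cyba in control T against control B cells (0.0567). The count of genes passed of 5 moved as follows. With only the groups compared in the model it was 0 for rEC against control LKS-SLAM, 4 for control B against control myeloid and 3 for control CD8 against control CD4 cells. With array quality weights it was 4 for control B against control myeloid cells and 3 for the F test, and without LKS-SLAM rEC replicate 2 and B cell rEC replicate 1 together it was 2 for the F test. Over the fits that left out 1 library each it was 0 to 1 for the mean difference between origins, 1 to 3 for FGRS against control myeloid, 1 to 2 for control B against control myeloid cells and 0 to 2 for the F test. It was 2 to 3 for rEC against control LKS-SLAM cells and 3 to 4 for FGRS against either LKS-SLAM group and for control T against control B cells. The cause of these moves was not tested, and the fit of the array quality weights stopped short of its convergence tolerance. Shares of all genes that passed were not counted for the smaller models, the array quality weights or the fits that left out libraries.

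Sign changes concerned differences that had not passed. With array quality weights, rEC against control was 0.11 for Cyba and 0.15 for Rac2 in LKS-SLAM cells, 0.18, 0.074 and 0.29 for Cyba, Ncf1 and Ncf4 in B cells and 0.066 for the mean of Rac2, and FGRS minus rEC LKS-SLAM was -0.40 for Hvcn1 (adjusted p = 0.00800). Without both libraries that stood apart, rEC against control B cells was 0.16, 0.19 and 0.18 for Ncf1, Ncf4 and Hvcn1, and FGRS minus rEC LKS-SLAM was -0.18 for Hvcn1. After quantile normalisation Rac2 was -0.31 in FGRS minus control LKS-SLAM and 0.0041 in control B minus control myeloid cells. Scaled to 1 total without the small RNA model Gm25500, it was -0.079 in FGRS minus control LKS-SLAM, Hvcn1 was -0.051 between myeloid origins and -0.14 in FGRS minus rEC LKS-SLAM, and Cyba was -0.12 in control CD8 minus control CD4 cells. Leaving out 1 library gave between origins -0.065 to 0.62 for Ncf1 and -0.13 to 0.13 for Hvcn1 in myeloid cells, -0.21 to 0.13, -0.64 to 0.16, -0.56 to 0.19 and -0.86 to 0.18 for Cyba, Ncf1, Ncf4 and Hvcn1 in B cells, -0.33 to 0.0044 for Rac2 and -0.62 to 0.029 for Hvcn1 in CD4 cells and -0.49 to 0.036 for Ncf1 in CD8 cells. It gave -0.19 to 0.25 for Hvcn1 in FGRS minus rEC LKS-SLAM and -0.14 to 0.24 for Cyba in control CD8 minus control CD4 cells.

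The replicate block fit, with the replicate number as a term, gave 1 of 5 for control B against control myeloid cells, where Cyba was at -0.82 (adjusted p = 0.0599). It also ended the calls of Hvcn1 in FGRS against control LKS-SLAM (adjusted p = 0.0593) and of Ncf1 in FGRS against control myeloid cells (0.0654). Deviations of same-numbered libraries correlated at -0.0889 to 0.0654 between FGRS and control LKS-SLAM cells, and at -0.169 to 0.126 over the 9 comparisons checked, with both control CD8 and CD4 pairs positive (0.112 and 0.126). No comparison with 3 pairs had every correlation over 0.1, and the labels tie no number to an animal or batch, so the libraries were not treated as pairs.

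Quantile normalisation shifted the median of all genes by over 0.1 in 7 comparisons, for example to 0.024 in FGRS against control LKS-SLAM cells, where it was -0.19 as deposited. The rEC groups mix titles of clone 47G1 and of secondary cells, and groups of 2 are assumed to vary like the others.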

Other observations

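A B220+ library whose title names clone 47G1, primary, is annotated as wild type, so it entered no comparison. It had 460.5 FPKM of Cyba, 182 FPKM of Ncf1, 206 FPKM of Ncf4, 255 FPKM of Rac2 and 93.4 FPKM of Hvcn1. Spi1 stood at 92.0 FPKM, the 5 B cell genes summed to 6079.5 FPKM and the 6 T cell genes to 2.101 FPKM. All 5 gene values lay within the range of the 6 grouped B cell libraries. Hvcn1 did so only through rEC replicate 1 (34.1 FPKM), which carried T cell genes, and Cyba only through control replicate 1 (539.9 FPKM). The next lowest Hvcn1 value of the grouped B cell libraries was 98.4 FPKM.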
